A study of Mus musculus with 8 samples.

Results

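The genes for the proteins of the mitochondrial ribosome were followed in IMCD, a mouse cell line labelled as kidney duct cells, with and without added NaCl. Every gene of the raw count table whose symbol is Mrpl or Mrps followed by a number, with or without a closing a, b or l, was taken as a member. This gave 77 of 15288 genes, 49 named for the large subunit (Mrpl) and 28 for the small subunit (Mrps). Near-confluent cultures, grown with serum, spent 12 h in DMEM without serum, either with nothing added (control, 4 libraries numbered 1 to 4) or with 100 mmol NaCl (4 libraries numbered 5 to 8). The labels give that amount without a volume, and all 8 libraries share the serum-free medium. No label says whether libraries of a group came from separate cultures, so the p-values measure the spread between these libraries, which may be technical.

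Mitochondria make the few proteins encoded in their own DNA, all of them parts of the respiratory chain or the ATP synthase in mammals, on ribosomes of their own. The RNA of these ribosomes is made in the mitochondrion, whereas every protein of them is encoded in the nucleus, made in the cytosol and imported. The small subunit reads the messenger RNA and the large subunit joins the amino acids. Some of the proteins have counterparts in bacterial ribosomes and others are found in mitochondria only.

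Libraries held 35.29 to 47.57 M counts, and all 77 members passed the expression filter that left 14024 genes to test. Member counts per library ran from 458 to 3557. Together the members took 0.295 ± 0.00991% of all counts with no NaCl added and 0.293 ± 0.00654% with it (SD over 4 libraries per group). The labelled cell type was checked against markers. The duct genes Aqp2 and Avpr2 and the general epithelial gene Cdh1 never exceeded 15, 48 and 30 counts per library. By contrast Gata3 had 205 to 444 counts, Epcam 974 to 1329 and the epithelial keratin gene Krt7 10627 to 16165. Lrp2, a marker of the proximal tubule, had 5460 to 8514 counts, while Slc5a2 of the same list had at most 11. The collagen gene Col1a1 had 69935 to 126514 counts, whereas the fibroblast receptor gene Pdgfra had 42 to 136. Of the 13 duct and epithelial markers, all in the table, the summed level was 630 to 796 CPM (counts scaled to a common library total) in control and 621 to 744 CPM in NaCl. Most of it was the keratin genes Krt7, Krt8 and Krt18, at 339, 109 and 217 CPM on average in control. In NaCl these keratin genes were at 325, 96.4 and 205 CPM. The 5 fibroblast markers in the table summed to 3092 to 3604 CPM in control and 2744 to 3194 CPM in NaCl, and their part in the results was not tested. Most of that sum was Col1a1, at 2495 and 2145 CPM on average, while Col3a1 was at 381 and 459 CPM. The leukocyte marker sum was 5.97 to 7.57 CPM in control and 15.1 to 15.6 CPM in NaCl, and its part was not tested either. The sum moved with Ptprc, at 4.06 and 13.4 CPM on average, whereas Cd68 was at 2.41 and 1.69 CPM and Cd79a was at or near 0. In bulk RNA, fewer cells of a type and less RNA per cell cannot be told apart.

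The member that moved by far the most was Mrps6, which shares exon sequence with another gene. Mrps6 (ENSMUSG00000039680) encodes the mitochondrial counterpart of bacterial protein S6, in the platform of the small subunit. It lies on the plus strand of chromosome 16 at 92058270 to 92112227 (GRCm38, GENCODE M21), with 3 exons in its main transcript. Slc5a3 (ENSMUSG00000089774), the sodium-coupled carrier for the osmolyte myo-inositol, lies inside it on the same strand at 92058322 to 92087473. The first exon of Slc5a3, 159 bases at 92058322 to 92058480, lies wholly inside the first exon of Mrps6. It makes up 18.8% of the Mrps6 transcript and 1.457% of the Slc5a3 transcript. The sequence just before these exons is shown here, because it lies before the start of both genes, together with that of Mrpl45, another member that rose. RefSeq (GRCm38.p6) gives the starts in the other order, Slc5a3 at 92058322 and Mrps6 at 92058336, so the annotations disagree on which gene starts first. The RefSeq starts are 14 bases apart, and the windows of 250 bases before them have 236 bases in common. Capitals mark the GC box GGGCGG, searched on both strands. That motif was picked after the data had been seen, and overlapping copies run together. The 66 bases nearest the Mrps6 start lie in annotated exon sequence and are left out. The Mrps6 stretch is chr16:92058086-92058269 and the Mrpl45 stretch is chr11:97315466-97315715, both on the plus strand.
Mrps6: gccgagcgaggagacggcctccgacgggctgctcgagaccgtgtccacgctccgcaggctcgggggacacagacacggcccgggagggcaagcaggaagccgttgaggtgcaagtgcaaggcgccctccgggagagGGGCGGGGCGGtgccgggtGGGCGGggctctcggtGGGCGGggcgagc
Mrpl45: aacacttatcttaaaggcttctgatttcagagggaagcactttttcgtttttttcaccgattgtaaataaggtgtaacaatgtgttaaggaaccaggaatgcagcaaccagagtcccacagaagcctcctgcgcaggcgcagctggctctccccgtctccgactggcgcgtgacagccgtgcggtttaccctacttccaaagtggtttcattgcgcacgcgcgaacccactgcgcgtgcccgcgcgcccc
The Mrps6 window held 4 copies of the GC box and the Mrpl45 window held none. GC boxes were found in 33 of the 68 members with a RefSeq promoter (48.5%) and in 35.4% of all 27025 promoters. Member windows were richer in G and C, at a median of 58.4% against 52.4% of all windows, and no motif share was adjusted for this. The motif called TonE, the element bound by the tonicity factor Nfat5, was in none of the 68 member windows and in 5.01% of all windows. Matches are letters in a window of 250 bases and not shown binding.

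Mrps6 was at 32.9, 33.8, 31.9 and 31.2 CPM in control libraries 1 to 4. In NaCl libraries 5 to 8 it was at 93.4, 78.4, 80.5 and 77.7 CPM. Every NaCl library lay above every control library, with a gap wider than the range within either group. The mean level was 32.5 ± 1.15 CPM in control and 82.5 ± 7.37 CPM in NaCl (SD, n = 4 each). On the log2 scale Mrps6 rose by 1.34 (SE 0.0575, adjusted p = 3.96e-11, edgeR quasi-likelihood test with Benjamini-Hochberg adjustment over all genes tested). It was the single member to change by at least 2-fold, against 2.04% of all tested genes called higher by that much. Slc5a3 was at 220 to 239 CPM in control and 493 to 565 CPM in NaCl, and rose by 1.18 (log2; SE 0.0439, edgeR adjusted p = 7.79e-12).

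How the authors' counting treated reads in the shared exon is not given in the sources used here. Mrps6 counts were 15.0, 15.2, 13.7 and 13.1% of the Slc5a3 counts in control libraries 1 to 4, and 16.5, 15.9, 16.2 and 15.2% in NaCl libraries 5 to 8. The ratio was thus higher in each NaCl library than in any control library, though barely. The highest control was 15.16% in library 2 and the lowest NaCl value 15.23% in library 8. If reads covered Slc5a3 evenly, its mean rise of 10856 counts would put 158 counts on the shared exon. That would be 8.32% of the mean rise of 1902 counts in Mrps6. Coverage along the exons was not measured here, and Mrps6 also shares sequence with Gm49711, an annotated gene on the same strand.

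**Figure D1:**
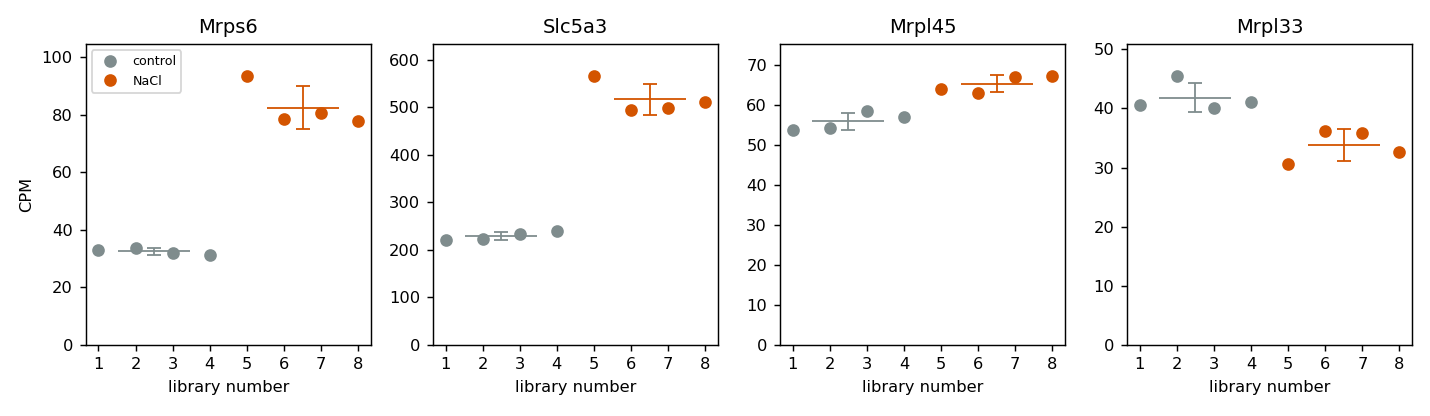
Level in CPM (vertical axis, from 0) of Mrps6, its overlapping neighbour Slc5a3, Mrpl45 and Mrpl33 by library number, with grey points for control and orange points for NaCl. Horizontal lines are group means with SD bars (n = 4). The groups do not overlap for any of the 4 genes, and Mrps6 goes from 31.2 to 33.8 CPM in control to 77.7 to 93.4 CPM with NaCl.

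Apart from Mrps6 the mitochondrial ribosomal protein genes moved little. With NaCl, 3 of 77 members rose (3.90%, against 16.9% of all tested genes) and 14 fell (18.2%, against 17.2%), which left 60 not called. Called in either direction were 17 of 77 members, against 34.1% of all genes. The share of members that fell was thus near that of all genes. The count that fell depended on the fit and on single libraries: it was 4, with 7 that rose, under a straight drift over the library numbers (given further on), 8 without NaCl library 6 and 9 without control library 2. Over all genes the share that fell was 12.6, 14.4 and 14.8% in these settings, in the same order. In 75 members the log2 fold change was under 0.3 in size. The median was -0.05 over the members and 0.00 over all tested genes (2.87e-03). For 59 of the 60 members not called, the 95% interval of the fold change lay within 1.25-fold in either direction. The interval reached furthest down to -0.33 and furthest up to 0.28 on the log2 scale.

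**Figure D2:**
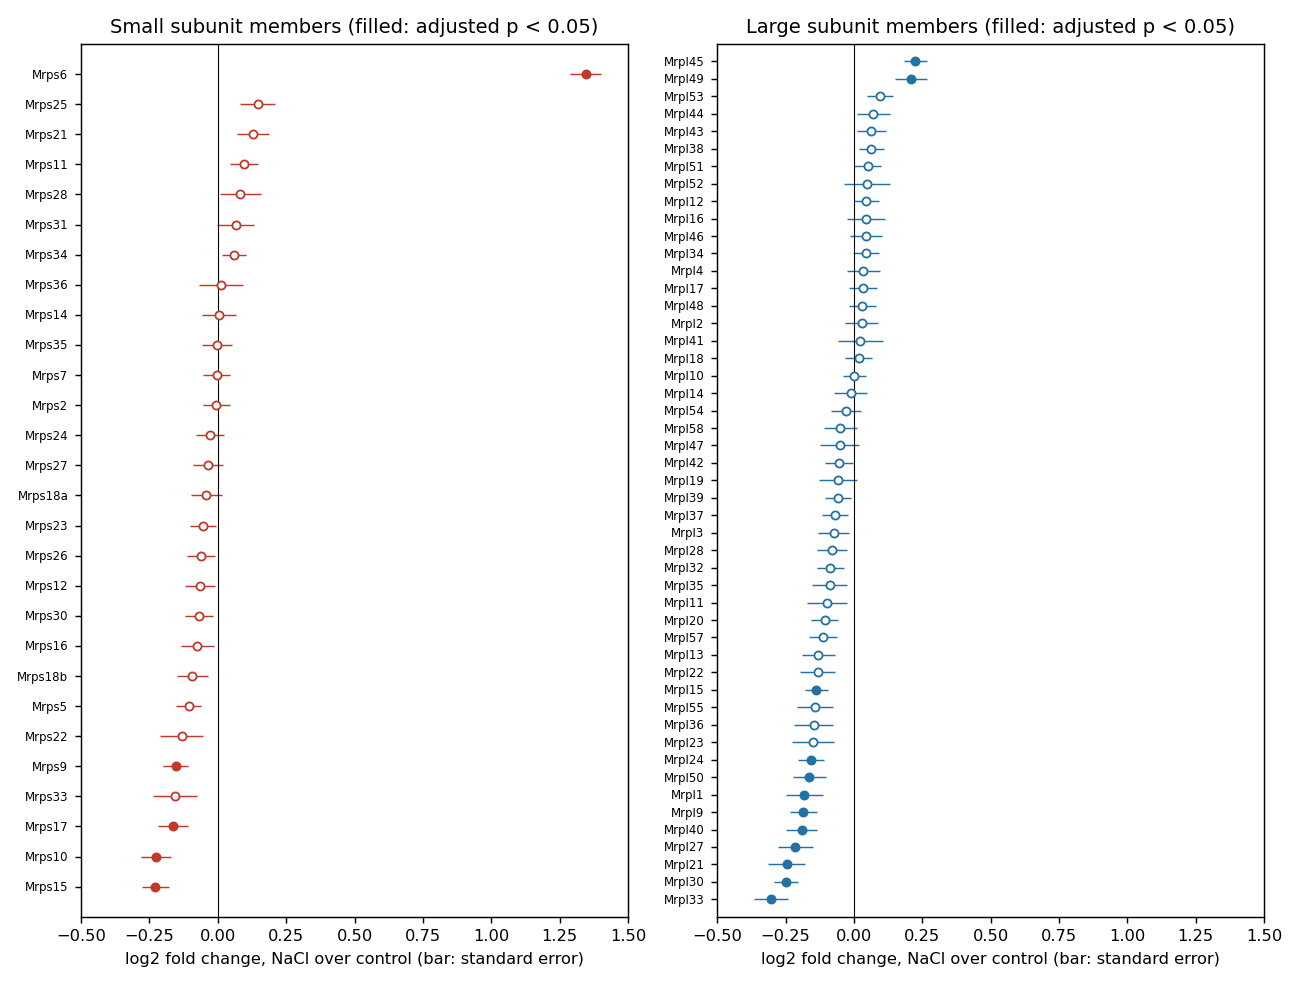
Log2 fold change of NaCl over control (horizontal axis) for the 28 small subunit members (left, red) and the 49 large subunit members (right, blue), with bars for the standard error and filled points for an adjusted p under 0.05. Mrps6 stands alone at 1.34, and the other members lie between -0.30 and 0.22.

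Among the small subunit genes 1 rose, 4 fell (14.3%, near the 17.2% of all genes) and 23 were not called, with a median log2 fold change of -0.04. Mrps15, whose bacterial counterpart binds the ribosomal RNA early in assembly, was at 55.2, 51.6, 49.1 and 51.1 CPM in control libraries. With NaCl it was at 46.9, 44.4, 42.8 and 42.7 CPM. The groups did not overlap, and Mrps15 fell by 0.23 on the log2 scale (SE 0.0497, edgeR adjusted p = 0.0019). Mrps10, a protein of the head of the subunit, was at 30.5, 33.7, 29.8 and 32.0 CPM in control and at 27.5, 26.8, 27.4 and 25.99 CPM with NaCl. It fell by 0.23 as well (SE 0.056, edgeR adjusted p = 0.0049), again without overlap. Mrps17 and Mrps9 fell by 0.17 and 0.15 on the log2 scale. The mitochondria-specific Mrps33 had a log2 fold change of -0.16 and was not called (edgeR adjusted p = 0.146). At the other end, Mrps25, Mrps21 and Mrps11 had values of 0.15, 0.13 and 0.10, none of them called. Mrps12, the counterpart of the bacterial decoding-centre protein S12, was at -0.06.

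By structural class, 1 of the 15 small subunit genes with bacterial counterparts rose and 4 fell, and none of the 10 mitochondria-specific genes was called in either direction. Of all genes 16.9% rose and 17.2% fell. The difference between the classes was not tested. The head group of 5 genes had 2 that fell, and the body and platform group of 8 had 1 that rose and 2 that fell. Mrps18b, of the mitochondria-specific class, was at -0.09. Mrps18a and Mrps30 bear small subunit names but sit in the large subunit in structures of the mammalian ribosome. Their log2 fold changes were -0.04 and -0.07, not called. Counted by structure rather than by name, and without Mrps36, the small subunit had 25 members with 1 higher and 4 lower, and the large subunit had 51 with 2 higher and 10 lower. Mrps36, now assigned to the 2-oxoglutarate dehydrogenase complex, had a value of 0.01.

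In the large subunit 2 genes rose, 10 fell (20.4%, near the 17.2% of all genes) and 37 were not called, with a median log2 fold change of -0.06. Mrpl45, which lies at the exit of the peptide tunnel and ties the ribosome to the inner membrane, was at 53.7, 54.3, 58.5 and 56.9 CPM in control libraries. With NaCl it was at 64.0, 62.9, 67.0 and 67.2 CPM. All NaCl libraries were above all controls, and Mrpl45 rose by 0.22 on the log2 scale (SE 0.0436, edgeR adjusted p = 7.6e-04). Mrpl49 was at 49.3, 45.1, 41.5 and 41.2 CPM in control and at 50.1, 53.9, 48.9 and 51.7 CPM with NaCl. The highest control library lay just above the lowest NaCl library, and Mrpl49 rose by 0.21 (log2; SE 0.058, edgeR adjusted p = 0.0105). The next 2 genes upward, Mrpl53 and Mrpl44, had values of 0.09 and 0.07 and were not called.

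Mrpl33, the counterpart of a small bacterial protein of the large subunit, had the lowest value of all members. It was at 40.6, 45.5, 40.1 and 41.1 CPM in control and at 30.6, 36.2, 35.9 and 32.6 CPM with NaCl. No NaCl library reached the lowest control, and Mrpl33 fell by 0.30 on the log2 scale (SE 0.0618, edgeR adjusted p = 0.0011). Mrpl30 was at 69.0, 71.6, 69.9 and 66.5 CPM in control and at 55.5, 57.2, 60.0 and 60.6 CPM with NaCl, a fall of 0.25 (SE 0.0429, edgeR adjusted p = 2.77e-04) without overlap. Mrpl21 fell by 0.25 with overlapping groups. Mrpl27, whose bacterial counterpart reaches towards the site of peptide bond formation, fell by 0.21. The further members that fell were Mrpl40, Mrpl9, Mrpl1, Mrpl50, Mrpl24 and Mrpl15, by 0.19 to 0.14. Of these Mrpl1 and Mrpl50 lay just under the threshold (edgeR adjusted p = 0.0446 and 0.0459). Each was called in 11 of the 19 settings given at the end.

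The 30 large subunit genes with bacterial counterparts had a median log2 fold change of -0.09, with 8 that fell and none that rose. The 19 mitochondria-specific genes had a median of 0.03, with 2 that rose and 2 that fell. The same shares of all genes, 16.9 and 17.2%, stand beside these counts and those of the smaller groups that follow, and the difference between the classes was not tested. None of the 5 stalk genes was called. Among them Mrpl10, Mrpl11 and Mrpl12, whose bacterial counterparts recruit the translation factors, had values of 0.00 (1.32e-03), -0.10 and 0.05. The central protuberance group had 2 of 8 that fell. The exit tunnel group of 7 had 1 that rose, Mrpl45, and 1 that fell. Mrpl58, a peptidyl-tRNA hydrolase built into the ribosome, was at -0.05. Over both subunits, 11 members lay lower with NaCl without overlap between the groups, against 16.9% of all genes, and 3 lay higher, against 16.5%.

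Summed over its members, the small subunit stood at 974 ± 26.7 CPM in control and 995 ± 23.0 CPM in NaCl, and the large subunit at 1988 ± 52.8 and 1924 ± 24.9 CPM (SD, n = 4 each). The ratio of the small to the large sum was 0.494, 0.486, 0.488 and 0.491 in control libraries. It was 0.527, 0.529, 0.507 and 0.507 in NaCl libraries, above every control. Mrps6 made up 3.33 ± 0.0635% of the small subunit sum in control and 8.28 ± 0.578% in NaCl. With Mrps6 left out the ratio was 0.474 ± 0.00357 in control and 0.474 ± 0.0104 in NaCl, and the groups overlapped. The gap between the groups in this ratio was thus present with Mrps6 and not without it.

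**Figure D3:**
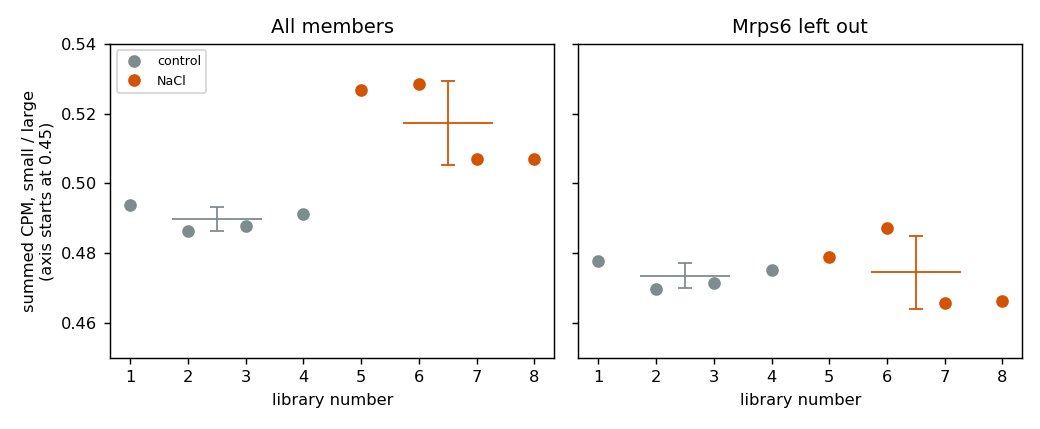
Ratio of summed CPM, small over large subunit (vertical axis, starting at 0.45), by library number for all members (left) and with Mrps6 left out (right), with group means and SD bars (n = 4). The groups are apart on the left, at 0.486 to 0.494 and 0.507 to 0.529, and overlap on the right.

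Levels per kilobase of the longest principal transcript put Mrpl33 highest at 79.1 CPM per kb, followed by Mrpl34 at 71.0, Mrps6 at 67.9 and Mrpl30 at 65.8 CPM per kb (means over the 8 libraries). That order pools the groups. In control Mrpl33 led at 87.5 ± 5.16 CPM per kb and Mrps6 was at 38.4 ± 1.36, whereas in NaCl Mrps6 led at 97.5 ± 8.71, followed by Mrpl34 at 72.1 and Mrpl33 at 70.8 CPM per kb. Next in the small subunit were Mrps21 at 59.1 and Mrps34 at 54.9 CPM per kb. Mrps25 was lowest at 5.72 CPM per kb, which gave a range of 13.8-fold. These levels depend on the annotated transcript length, and with the shortest principal transcript Mrpl30 came first at 108.7 CPM per kb. For 6 members most of the transcript matches another gene at 98% identity over at least 75 bases, among them Mrpl53, Mrpl27, Mrps25 and Mrps34. Their values are uncertain where reads could be split. Exons of 32 members overlap those of another gene, and no source used here states whether counting used the strand.

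The slope along the library number was examined next, because the libraries of a group carry consecutive numbers whose meaning the labels do not state. A common slope was fitted within both groups, as the log2 change per step of the number. No member had a rising slope and 6 had a falling slope, against 6.95 and 6.22% of all genes (13.2% either way). Slopes were below 0 in 54 of 77 members, with a median of -0.02 per step for the small and -0.01 for the large subunit (-0.00947). Of the 6, 4 were small subunit genes (Mrps22, Mrps25, Mrps31 and Mrps36) and 2 were large subunit genes (Mrpl13 and Mrpl35). None of the 6 was called between the groups in the plain fit, which has no term for the number. With the centred number beside the group, Mrps25 was called higher and Mrpl13 lower with NaCl, and under the straight drift Mrps25, Mrps31 and Mrps36 were called higher. The slope calls rested on single libraries: without control library 1 none of the 6 was called (Mrps6 was called instead), without NaCl library 8 only Mrps25 was, and without NaCl library 5 only Mrpl13 and Mrps25 of the 6 were. In these settings, in the same order, 2.32, 3.29 and 6.27% of all genes were called falling, against 6.22% with all libraries.

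Mrpl13 was at 74.2, 71.0, 65.9 and 64.3 CPM in libraries 1 to 4 and at 66.7, 63.3, 66.2 and 55.8 CPM in libraries 5 to 8. Its common slope was -0.07 per step (edgeR adjusted p = 0.0061). Mrps22, a mitochondria-specific protein, was at 32.0, 27.2, 27.2 and 27.3 CPM in control and at 28.9, 25.99, 26.7 and 22.4 CPM in NaCl, with a slope of -0.09 (edgeR adjusted p = 0.0196). Mrps36 had a slope of -0.09, Mrps25 of -0.08, and Mrpl35 and Mrps31 of -0.07. In all 6 genes the last library of each group was lower than the first. In Mrps22 the control libraries 2 to 4 were level and library 1 stood above them. The highest slopes were those of Mrpl50 and Mrpl17 in the large subunit (0.05 and 0.04) and of Mrps21 and Mrps12 in the small (0.02 each), none of them called. Mrps6 had a slope of -0.06 (edgeR adjusted p = 0.0501).

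All 10 mitochondria-specific genes of the small subunit had common slopes below 0, and 3 of them were called. Of its genes with bacterial counterparts, 8 of 15 had slopes below 0 and none was called. Over all genes 7171 of 14024 slopes were below 0 and 6.22% were called falling, and the difference between the classes was not tested. With a slope for each group in a single fit over all 8 libraries, the control slope fell in 5 members (Mrpl11, Mrpl18, Mrpl2, Mrpl3 and Mrpl49), all of the large subunit, against 4.42% of all genes, and rose in none, against 4.93%. For the NaCl slope of that fit, no member was called by edgeR in either direction, against 4.07% of all genes (3.02% rising and 1.06% falling), and 9 had an unadjusted p under 0.05, against 15.8% of all genes. The difference between the slopes of the groups was called for no member by edgeR, against 0.0927% of all genes, and 7 members had an unadjusted p under 0.05, against 7.76% of all genes. The slopes are therefore not shown to differ between control and NaCl.

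**Figure D4:**
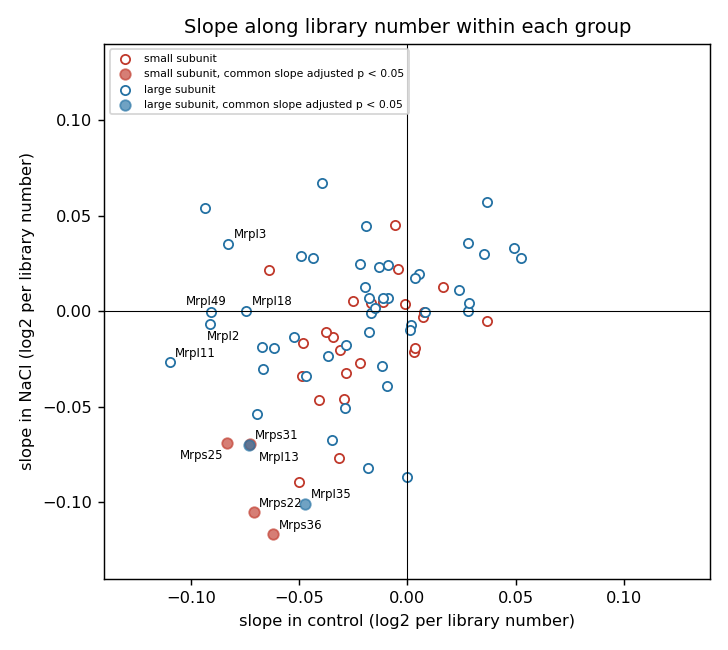
Slope of log2 level per library number in control (horizontal axis) against that in NaCl (vertical axis) for each member, red for small and blue for large subunit. Filled points are the 6 members with a common slope at an adjusted p under 0.05, all in the lower left, and names also mark the 5 members whose own slope in control was called.

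With the number centred within its group as a further term, which leaves a drift across the groups in place, 4 members were higher and 15 lower with NaCl, against 21 and 22% of all genes (43% either way). Since the numbers 1 to 4 are all control and 5 to 8 all NaCl, a change along the number that runs on across the groups cannot be told apart from the treatment except by assuming its shape. With a straight drift over libraries 1 to 8 in the fit, 7 members were higher and 4 lower with NaCl, against 11.5 and 12.6% of all genes (24.1% either way). Of the 17 calls of the plain fit, 6 were made in the same direction. They were Mrps6, Mrpl49, Mrpl33, Mrpl30, Mrpl50 and Mrpl24. Under the drift Mrpl33 and Mrpl24 lay just under the threshold (edgeR adjusted p = 0.0404 and 0.0456), and Mrpl30 and Mrpl50 were at 0.0077 and 0.0133. The log2 fold change of Mrps6 was 1.57 in that fit. Mrps25, Mrps28, Mrps31, Mrps36 and Mrpl38 were called higher under the drift and not in the plain fit, and of these Mrps25 was also called higher with the centred number. Mrpl21 went from -0.25 to 0.00 (2.84e-03). The medians went from -0.04 to 0.05 in the small and from -0.06 to 0.01 in the large subunit (0.0098). In 22 of 77 members the sign differed between these fits.

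**Figure D5:**
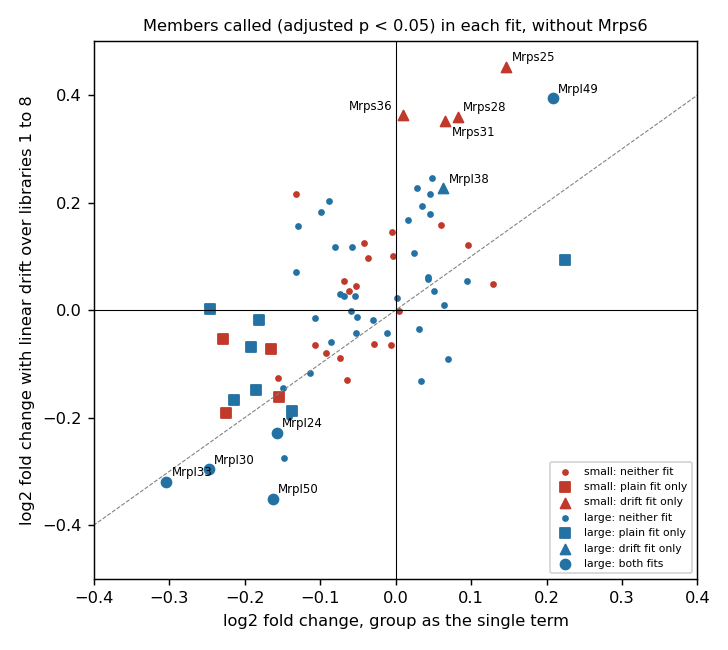
Log2 fold change of 76 members (Mrps6 left out) with the group as the single term (horizontal axis) against that with a straight drift over libraries 1 to 8 (vertical axis), with the dashed line for equal values. Symbols show in which fit a member was called. Mrpl33, Mrpl30, Mrpl24 and Mrpl50 are called lower and Mrpl49 higher in both.

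Other genes of the mitochondrial translation pathway are given for comparison, and their counts stand beside the 16.9% of all genes that rose and the 17.2% that fell. Of 6 ribosomal proteins with other names, none was called between the groups. Among them Mrps18c had a falling slope (-0.08 per step, edgeR adjusted p = 0.015) and was higher under the straight drift, by 0.27 (log2; edgeR adjusted p = 0.049). Of 14 translation factors, Mtfmt, which formylates the initiator methionine tRNA, rose by 0.19 on the log2 scale. In the same list Mrrf, the ribosome recycling factor, fell by 0.24 and Mtrfr by 0.21. Of 29 genes for assembly and RNA modification of the ribosome 4 rose (13.8%) and none fell. Mettl15, a methyltransferase of the small subunit RNA, went from 5.15 ± 0.285 to 6.95 ± 0.729 CPM with NaCl (SD, n = 4 libraries), which is a rise by 0.43 (log2; SE 0.11, edgeR adjusted p = 0.00574). The others were Dhx30, Trub2 and Mpv17l2, at 0.22, 0.20 and 0.16.

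Of 15 genes for mitochondrial transcription and RNA handling 2 rose and 2 fell (13.3% each). Prorp, the nuclease subunit of mitochondrial RNase P, and Polrmt, the mitochondrial RNA polymerase, rose by 0.23 and 0.18 on the log2 scale. Pnpt1, an RNA-degrading enzyme, fell by 0.36 and the RNA-binding protein Grsf1 fell by 0.24. Pnpt1 also had a falling slope along the library number (-0.08 per step), and its log2 fold change under the straight drift was -0.02. Of 9 regulators of nuclear genes for mitochondrial proteins 1 rose and 2 fell. Yy1 rose by 0.11, Myc fell by 0.16, and Ppargc1b, a coactivator at 1.54 ± 0.147 CPM in control and 0.939 ± 0.199 CPM in NaCl (SD, n = 4 each), fell by 0.71. Of these 14 calls, only those of Dhx30 and Myc were also made under the straight drift, and 12 were not, those of Mettl15, Mrrf, Prorp and Yy1 among them. The factors Nrf1 and Gabpa had values of 0.03 and -0.05 and were not called. In the promoter windows the NRF1 site core GCGCATG was found in 8 of 68 members (11.8%, against 3.68% of all windows), and the ETS core CCGGAAG, which Gabpa can bind, in 17 (25%, against 7.83%). The YY1 core AAGATGG was in 6 (8.82%, against 5.18%). All 3 were searched on both strands as these exact letters, so other forms of each site were not counted. The Mrpl45 stretch shown above, for example, holds GCGCACG and was counted as having no NRF1 core.

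The genes for the proteins of the cytosolic ribosome are set beside these. Of 77 such genes 65 fell with NaCl (17.2% of all genes) and none rose (16.9% of all genes), with a median log2 fold change of -0.22, and 29 had a rising slope along the library number (6.95% of all genes) and none a falling slope (6.22%). The difference between these and the mitochondrial members was not tested.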

How the data were processed

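RNA of 8 libraries, 4 per group, was sequenced. The raw counts per gene were deposited by the authors, as whole numbers, and were the input to all main tests. A table of normalized values, a signal deposited by the authors, equals the count divided by 1 factor per library (0.864 to 1.145) and served in an alternative. Per the submitters' processing notes, Trim Galore 0.6.7, STAR, DESeq2 1.34.0 and the build mm10 were used. The counting program and strand setting are not given in the sources used here.

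Counts were fitted in R 4.3.3 with edgeR 4.0.16 (filterByExpr at a minimum count of 10, TMM, robust quasi-likelihood F test, Benjamini-Hochberg over 14024 genes, called under 0.05). The filter removed 0.0191% of counts. CPM used TMM-scaled totals. The common slope used the library number centred within its group beside the group. Alternatives were other scalings and filters, DESeq2 1.42.0, limma 3.58.1, a threshold of 0.01, the library number as a covariate and leaving out each library. Alternatives for the pathway lists and the median without Mrps6 were added after seeing the data. The tests were checked on simulated data: they held their level over genes without a change, but called somewhat more false genes than the adjusted threshold allows, mostly genes with a higher dispersion than any member. The simulated data held fewer changed genes than were called here, so the size of that excess may not carry over. Calls just under the threshold may still be less firm than their adjusted p-values say.

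Annotation came from GENCODE M21 (GRCm38), promoters from RefSeq (GRCm38.p6) and shared sequence from blastn 2.17.0. Genes were named by rule: in each subunit the 4 highest and 4 lowest fold changes, the 3 highest levels per length, the 2 highest and 2 lowest slopes, members of known role, and the highest and lowest called gene of each pathway list. Other named genes were chosen after their values were seen. The members, lists and tests were chosen with earlier results of these data known.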

Additional observations from a re-analysis of the deposited data

Results flagged for a closer look

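Mrps22 was at 32.03 CPM in control library 1, whereas the other 3 controls lay between 27.18 and 27.29 CPM, so that library stood apart from its group. The total of control library 1, 47.57 M counts, stood above those of the other controls, and the total of NaCl library 5, 35.29 M, stood below those of the other NaCl libraries. Chance alone gives about 1 such library in 20 groups, and 88 groups were examined.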

How the results depend on the processing

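No paired analysis was made, because no label matches a control library to an NaCl library. The control libraries are numbered 1 to 4 and the NaCl libraries 5 to 8. Mrps6, Mrpl30 and Mrpl33 were called in all 19 settings. At an adjusted p under 0.01, 6 members were lower (2 small, 4 large, 11.4% of all genes) and 1 had a slope (2.81% of all genes falling). At that threshold 6 pathway genes were called in place of 14, against 22.4% of all genes. With the straight drift, 7 members were higher and 4 lower (0 small, 4 large), against 11.5 and 12.6% of all genes. Under that drift 6 pathway genes were called (2 of them among the 14), against 24.1% of all genes. The medians were 0.046 (small) and 0.0098 (large). With the number centred within groups 25 pathway genes were called, against 43% of all genes. With library totals alone 10 members had a slope (9.46% of all genes falling), and with a slope of its own in NaCl 0 had. Leaving out each library gave 8 to 14 members lower (5 to 10 large, 3 to 5 small), 9 to 15 pathway genes and 1 to 6 slopes. Over all genes it gave 28.7 to 32.6% called in either direction, 14.4 to 16.7% lower and 2.32 to 6.27% with a falling slope. The lowest counts of members lower came without NaCl library 6 (8) and control library 2 (9), and of slopes without control library 1 (1, Mrps6, and none of the 6 reported) or NaCl library 8 (1, Mrps25). The sign reversed under the drift in 22 of 77 members. Of those named by the rule they were Mrpl21 (0.0028), Mrps22 (0.22), Mrpl13 (0.16), Mrpl11 (0.18), Mrpl35 (0.20), Mrps30 (0.053), Mrps18a (0.12), Mrpl17 (-0.13) and Mrpl44 (-0.092). Mrpl10, near 0, was at -2.13e-04 with median-of-ratios factors, -0.0023 without a filter, -2.72e-04 with DESeq2, -6.23e-04 with limma on normalized values, and -0.022 to 0.020 with a library left out. Mrps36 ran from -0.037 to 0.072 with a library left out. The causes were not tested. For single genes 634 values kept their direction and side of the threshold, 43 lost and 5 gained a call, and 20 reversed.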
